A study of Sus scrofa with 5 samples.

Results

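The RNA of 9 genes that carry cholesterol into the mitochondrion, turn it into progesterone, and switch that path on or off was followed in ovarian follicles of pigs. The genes were chosen by symbol: STAR and TSPO for cholesterol transfer, CYP11A1 with its electron carriers FDX1 and FDXR for side-chain cleavage, HSD3B1 for progesterone formation, and the nuclear receptors NR5A1, NR5A2 and NR0B1. Each symbol had 1 row among the 30822 genes listed. The libraries were 3 of large follicles, LF1 to LF3, and 2 of small follicles, SF1 and SF2, all from female Indian Ghoongroo pigs, with no treatment named beyond follicle size. The study set large against small follicles. Follicle diameters, the age and cycle stage of the animals, and the number of follicles or animals behind a library are not given in the labels, so every p measures only the spread between these libraries.

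Follicles make progesterone from cholesterol in a fixed sequence of steps. STAR moves cholesterol to the inner mitochondrial membrane, where CYP11A1 cuts its side chain with electrons handed on from FDXR through FDX1, and HSD3B1 then converts the resulting pregnenolone to progesterone. NR5A1 and NR5A2 bind the promoters of these genes and activate them, and NR0B1 represses NR5A1. In growing follicles theca cells run the path to feed androgen synthesis, and granulosa cells take it up strongly as they near ovulation and luteinize.

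Levels are FPKM, the authors' fragment counts scaled by gene length and library total. Library totals, worked back from the FPKM steps, were 9991708 to 11507527 fragments in large follicles and 9523739 to 10038500 in small follicles. All libraries held the defining markers of both main cell types of a follicle. The granulosa hormone subunit INHA had 4474 to 11739 FPKM in large and 2876 to 3515 FPKM in small follicles, and the theca hormone INSL3 had 646 to 1115 FPKM in large and 446 to 852 FPKM in small follicles. Markers of adrenal cortex, the other organ rich in these enzymes, differed in direction. Its receptor MC2R, too low to be tested, had 0.0680 to 0.131 FPKM in large and 0.219 to 0.520 FPKM in small follicles. These levels rest on 3, 5 and 3 fragments in LF1, LF2 and LF3 and on 8 and 20 in SF1 and SF2. CYP21A2 had 1.90 to 2.12 FPKM in large and 3.52 to 3.79 FPKM in small follicles. MRAP, the accessory protein of MC2R, had 15.3, 22.6 and 16.1 FPKM in LF1, LF2 and LF3, and 4.26 and 7.69 FPKM in SF1 and SF2. Its log2 difference was 1.47 (limma adjusted p = 0.0618), and 1.11 without SF1. The limma adjusted p of MRAP was 0.168 without LF1, 0.0473 without LF2 and 0.0251 without LF3. Mitochondrial mRNA took 3.08% to 6.33% of fragments in large and 4.20% to 8.50% in small follicles.

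STAR RNA was higher in every large follicle library than in either small one. STAR (gene 396597, Sscrofa11.1 chromosome 15, 48377597 to 48385398) had 102, 236 and 169 FPKM in LF1, LF2 and LF3, and 35.5 and 61.6 FPKM in SF1 and SF2. The lowest large follicle library was 1.65 times the highest small one, while the libraries within large follicles spanned 2.33-fold and those within small follicles 1.73-fold. The means were 169 ± 67.4 FPKM in large follicles (SD, n = 3) and 48.6 ± 18.4 FPKM in small follicles (SD, n = 2), a 3.48-fold difference. On the log2(FPKM + 1) scale, where all genes were fitted together with limma, the large minus small difference was 1.75 (SE 0.35, 95% interval 0.95 to 2.54), and the limma adjusted p was 0.0604, just outside the threshold of 0.05. STAR passed when LF2 or LF3 was left out (limma adjusted p = 0.0139 and 0.00822), and had a limma adjusted p of 0.263 without SF1. The libraries are bulk follicle RNA, so fewer cells of a type and less RNA per cell cannot be told apart here or in the values that follow.

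TSPO, a cholesterol-binding protein of the outer mitochondrial membrane, also had no overlap between the groups, but its libraries ran in another order. TSPO (gene 396592, chromosome 5, 5723190 to 5735097) had 121, 90.3 and 70.8 FPKM in LF1, LF2 and LF3, and 60.2 and 48.9 FPKM in SF1 and SF2. LF1, the lowest of its group for STAR, was the highest for TSPO. The log2 difference was 0.75 (SE 0.25, 95% interval 0.18 to 1.31, limma adjusted p = 0.301).

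CYP11A1, the enzyme that makes pregnenolone, showed the pattern of STAR with a smaller difference. CYP11A1 (gene 403329, chromosome 7, 59172829 to 59188479) had 159, 313 and 220 FPKM in LF1, LF2 and LF3, and 80.5 and 127 FPKM in SF1 and SF2. The groups did not overlap, and the lowest large follicle library was 1.25 times the highest small one. Means were 231 ± 77.6 FPKM in large (SD, n = 3) and 104 ± 33.1 FPKM in small follicles (SD, n = 2). The log2 difference was 1.13 (SE 0.31, 95% interval 0.43 to 1.82, limma adjusted p = 0.170).

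The electron carriers of CYP11A1 did not show that separation. FDX1, the iron-sulfur protein that hands electrons to CYP11A1 (gene 397133, chromosome 9, 38376147 to 38399026), had 168, 132 and 127 FPKM in LF1, LF2 and LF3, and 140 and 172 FPKM in SF1 and SF2. The groups overlapped, with a log2 difference of -0.14 (SE 0.22, 95% interval -0.63 to 0.35, limma adjusted p = 0.901). FDXR, the flavoprotein that takes electrons from NADPH (gene 100512919, chromosome 12, 6372224 to 6382769), had 166, 248 and 191 FPKM in LF1, LF2 and LF3, and 132 and 219 FPKM in SF1 and SF2. Here SF2 lay above 2 of the 3 large follicle libraries, and the log2 difference was 0.23 (SE 0.27, 95% interval -0.39 to 0.84, limma adjusted p = 0.869). The interval of FDX1 reaches from a 0.646-fold to a 1.28-fold level in large follicles, and that of FDXR from 0.765-fold to 1.79-fold. Both differences changed sign with 1 library: FDX1 had 0.01 without SF2, and FDXR had -0.14 without SF1. A noncoding gene, LOC110262223, overlaps FDX1 by 1242 bases on the opposite strand, with 50 to 127 fragments in large and 78 to 158 in small follicles. The labels do not say whether counting used strand, so fragments from the overlap cannot be told apart.

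HSD3B1, which forms progesterone, was barely separated between the groups. HSD3B1 (gene 445539, chromosome 4, 101565229 to 101574110) had 111, 239 and 130 FPKM in LF1, LF2 and LF3, and 90.7 and 105 FPKM in SF1 and SF2. The lowest large follicle library was only 1.06 times the highest small one, and LF2 stood well above the other four. The log2 difference was 0.63 (SE 0.31, 95% interval -0.07 to 1.32, limma adjusted p = 0.544), and 0.30 without LF2.

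**Figure D1:**
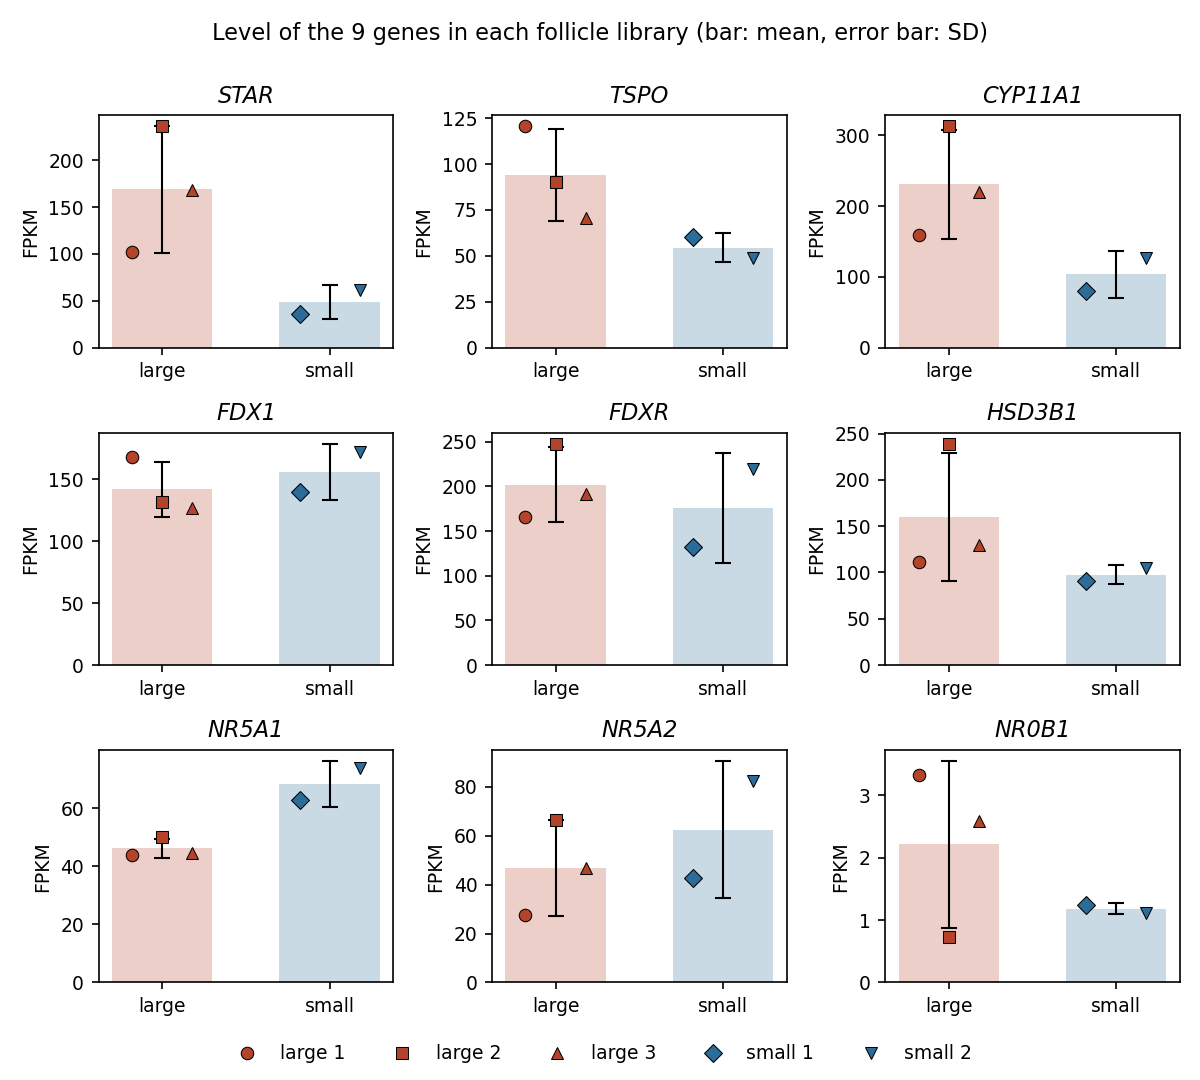
FPKM of each of the 9 genes (vertical axes, each starting at 0) in the large follicle libraries (left, red) and small follicle libraries (right, blue). Points are libraries, bars are means and error bars are SD (n = 3 large, n = 2 small). STAR, CYP11A1, HSD3B1 and TSPO have every large follicle library above both small ones, and NR5A1 has every large follicle library below them.

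NR5A1 was lower in value in large follicles, and NR5A2 overlapped between the sizes. NR5A1, also called steroidogenic factor (gene 397368, chromosome 1, 265284491 to 265311547), had 44.0, 49.9 and 44.4 FPKM in LF1, LF2 and LF3, and 62.7 and 73.9 FPKM in SF1 and SF2. Every large follicle library was below both small ones, and the spread within large follicles was narrow at 1.13-fold. The log2 difference was -0.55 (SE 0.20, 95% interval -0.997 to -0.11, limma adjusted p = 0.335). NR5A2, the liver receptor homolog that granulosa cells express (gene 100523688, chromosome 10, 22727865 to 22866905), had 27.5, 66.6 and 46.6 FPKM in LF1, LF2 and LF3, and 42.6 and 82.4 FPKM in SF1 and SF2. Its groups overlapped, with a log2 difference of -0.42 (SE 0.38, 95% interval -1.26 to 0.43, limma adjusted p = 0.805). That value was -0.09 without LF1, -0.71 without LF2, -0.89 without SF1 and 0.05 without SF2.

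The repressor NR0B1 was scarce. NR0B1 (gene 397680, chromosome X, 26117874 to 26122951) had 3.32, 0.726 and 2.58 FPKM in LF1, LF2 and LF3, and 1.25 and 1.12 FPKM in SF1 and SF2. These levels rest on 58, 11 and 41 fragments in large and 18 and 17 fragments in small follicle libraries. Exact Poisson 95% intervals, which cover counting error only, were 2.52 to 4.30, 0.362 to 1.299 and 1.85 to 3.50 FPKM in large follicles, and 0.738 to 1.97 and 0.650 to 1.79 FPKM in small follicles. LF2 was therefore below the other 2 large follicle libraries beyond counting error, and was not separated from the small follicle libraries at this depth. The log2 difference was 0.46 (SE 0.39, 95% interval -0.41 to 1.32, limma adjusted p = 0.789). It was 0.85 without LF2, 0.19 without LF1 and 0.20 with a pseudocount of 5.

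By limma, 0 of the 9 genes passed the adjusted threshold, where 0.978% of the 13087 genes tested did. At an unadjusted p under 0.05 there were 4 of the 9, STAR, CYP11A1, TSPO and NR5A1, where 10.4% of all genes tested reached that level. Limma voom on recovered fragments likewise passed 0 of the 9 (0.535% of all genes), with 4 at an unadjusted p under 0.05. Groups without overlap were found for 5 of the 9, 4 higher in large follicles and 1 lower, against 26.1% of all genes tested, made up of 10.9% higher and 15.2% lower. The median log2 difference of the 9 was 0.46, beside -0.08 over all genes tested. That median is the value of NR0B1, which rests on few fragments. With 3 against 2 libraries an exact permutation test of a single gene cannot give a two-sided p below 0.1.

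**Figure D2:**
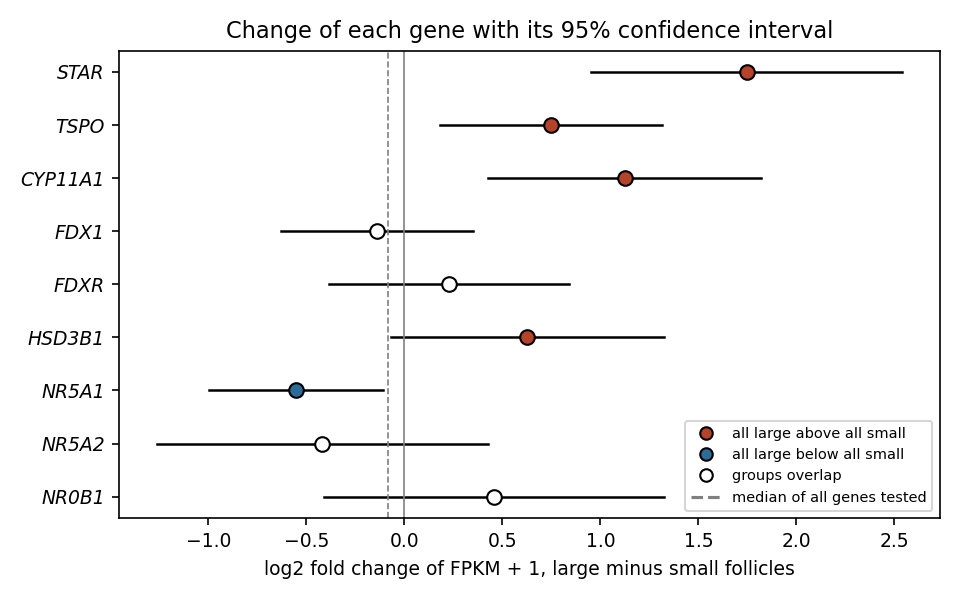
Large minus small difference of log2(FPKM + 1) for each gene (horizontal axis) with its 95% confidence interval from limma. Red points mark genes with every large follicle library above both small ones, blue the reverse, white genes whose groups overlap, and the dashed line is the median of all genes tested. STAR at 1.75 and CYP11A1 at 1.13 lie farthest to the right, and NR5A1 at -0.55 farthest to the left.

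Within the groups the steps and their activators kept 1 order of libraries. For STAR, CYP11A1, HSD3B1, FDXR, NR5A1 and NR5A2, 6 of the 9 genes, LF1 was lowest, LF3 intermediate and LF2 highest, and SF1 was below SF2. This order was read from the values of these genes themselves, and 5.65% of all genes tested shared it. For NR5A1, LF1 and LF3 differed by less than counting error, with exact Poisson 95% intervals of 41.8 to 46.3 and 42.2 to 46.8 FPKM. NR0B1 had exactly the reverse order within both groups, as did 4.03% of all genes tested, although SF1 and SF2, and likewise LF1 and LF3, differed by less than counting error. TSPO and FDX1 had neither order. Over all 5 libraries, STAR, CYP11A1 and HSD3B1 had the same sequence from high to low, LF2, LF3, LF1, SF2 and SF1, a sequence found for 0.894% of all genes tested. For HSD3B1 the step from LF1 to SF2 was small, and their exact Poisson 95% intervals overlapped, at 107.1 to 116.0 and 100.3 to 109.6 FPKM.

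The size of the steps differed between the genes. Centred on its mean over the 5 libraries, log2(FPKM + 1) of STAR was highest at 1.26 in LF2 and lowest at -1.44 in SF1. In the same libraries CYP11A1 had 0.94 and -1.002, and HSD3B1 had 0.91 and -0.48. NR5A2 had its lowest centred value, -0.83, in LF1 and its highest, 0.72, in SF2. NR5A1 stayed between -0.28 and -0.11 in large follicles and between 0.22 and 0.45 in small follicles. NR5A2, and NR5A1 apart from its undecided step between LF1 and LF3, thus shared the order of STAR, CYP11A1 and HSD3B1 within each follicle size. They did not share it between the sizes. With 5 libraries no correlation was computed. The summed FPKM of 17 granulosa markers had the same order, at 7318, 16400 and 12025 in LF1, LF2 and LF3 and 5378 and 8144 in SF1 and SF2, and 8 of the 16 tested markers had it singly. INHA is the largest term of that sum, with 11739 of the 16400 FPKM in LF2, and NR5A2 is itself in the marker list. The granulosa markers FSHR and AMH were instead lowest in LF2. FSHR had 5.47, 1.2004 and 8.06 FPKM in LF1, LF2 and LF3, and AMH had 14.4, 6.67 and 12.6 FPKM. The sum of 13 genes of cholesterol uptake, storage and release also had the order. It was 417, 532 and 521 in LF1, LF2 and LF3 and 424 and 545 in SF1 and SF2, and 4 of these genes had the order singly. The part of granulosa content in the shared order was not tested.

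**Figure D3:**
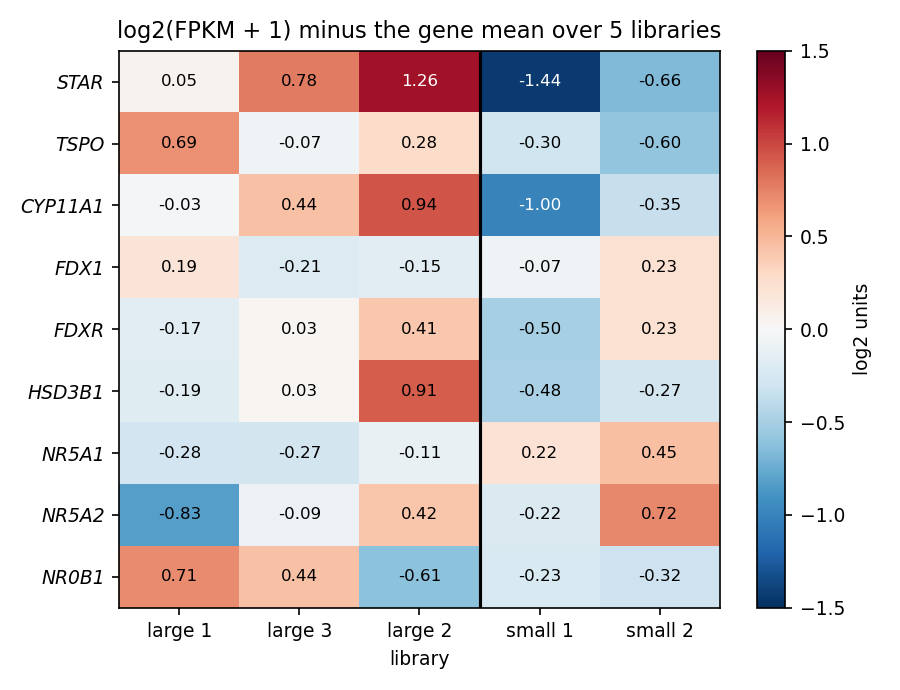
log2(FPKM + 1) of each gene (rows) minus its mean over the 5 libraries (columns: large follicles left of the line, in the order 1, 3, 2, and small follicles to the right), with the value written in each cell. STAR, CYP11A1, HSD3B1, FDXR, NR5A1 and NR5A2 increase from left to right within each follicle size, and NR0B1 decreases.

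Ratios between genes of the same library, which no scaling of a library can alter, separated STAR from CYP11A1. STAR stood to CYP11A1 at 0.639, 0.755 and 0.766 in LF1, LF2 and LF3, and at 0.441 and 0.484 in SF1 and SF2. The groups did not overlap. The mean log2 ratio was -0.48 ± 0.14 in large (SD, n = 3) and -1.11 ± 0.09 in small follicles (SD, n = 2). Of the 13086 other genes tested, 1.02% had a ratio to CYP11A1 that was higher in every large follicle library than in both small ones. HSD3B1 stood to CYP11A1 at 0.702, 0.764 and 0.589 in large follicles and at 1.13 and 0.824 in small follicles. FDX1 stood to CYP11A1 at 1.06, 0.420 and 0.575 in large and at 1.74 and 1.35 in small follicles, and FDXR at 1.05, 0.792 and 0.869 in large and at 1.64 and 1.72 in small follicles. All 3 of these ratios were lower in every large follicle library, as was the ratio to CYP11A1 of 77% of all other genes, so this direction is common to most genes.

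STAR and CYP11A1 RNA per NR5A1 RNA was several times greater in large follicles. HSD3B1 was not set against NR5A1. STAR stood to NR5A1 at 2.31, 4.74 and 3.79 in LF1, LF2 and LF3, and at 0.567 and 0.834 in SF1 and SF2. CYP11A1 stood to NR5A1 at 3.61, 6.28 and 4.95 in large and at 1.28 and 1.72 in small follicles. The groups overlapped for neither gene, but 40.9% of all other genes also had a ratio to NR5A1 that was higher throughout large follicles. The repressor stood to NR5A1 at 0.0755, 0.0146 and 0.0581 in large and at 0.0199 and 0.0151 in small follicles, with overlap. NR5A2 stood to NR5A1 at 0.625, 1.34 and 1.05 in large and at 0.680 and 1.12 in small follicles, again with overlap, with a wider range within each follicle size than between their means. Of all other genes, 2.74% had a ratio to NR5A1 that was lower throughout large follicles.

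**Figure D4:**
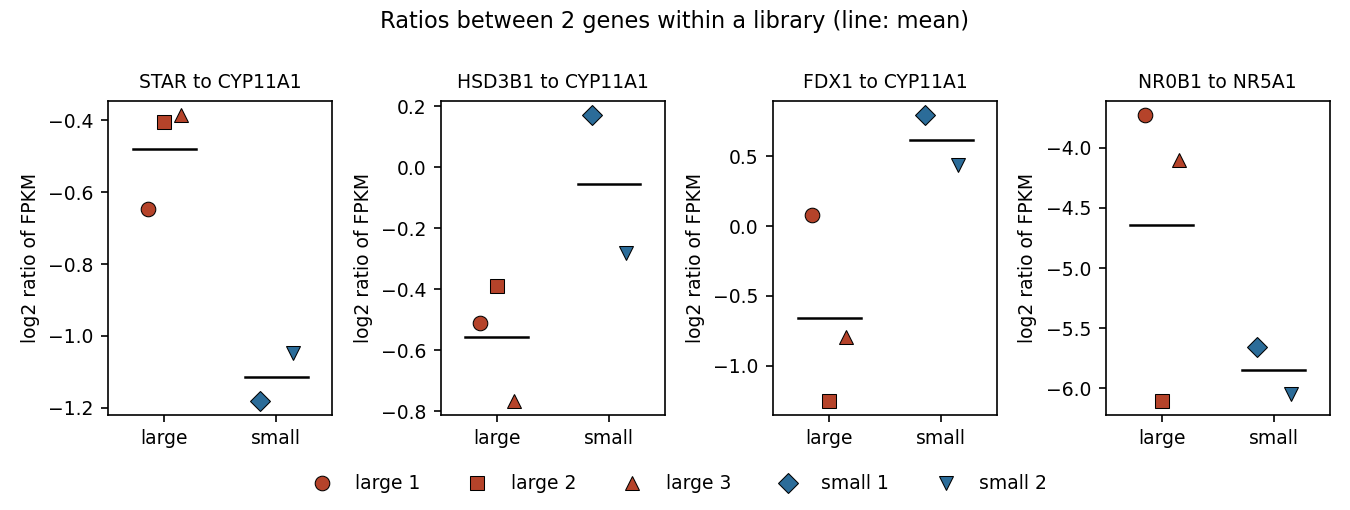
log2 ratio of the FPKM of 2 genes within each library (points), large follicles left and small follicles right in each panel, with a line at the group mean. STAR to CYP11A1 is higher in all large follicle libraries, HSD3B1 and FDX1 to CYP11A1 are lower in all of them, and NR0B1 to NR5A1 overlaps.

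STAR also took another place among the 9 genes in the 2 follicle sizes. By mean FPKM, a level per length, large follicles had CYP11A1 at 231, FDXR at 202, STAR at 169, HSD3B1 at 160, FDX1 at 142, TSPO at 93.9, NR5A2 at 46.9, NR5A1 at 46.1 and NR0B1 at 2.21. Small follicles had FDXR at 175, FDX1 at 156, CYP11A1 at 104, HSD3B1 at 97.8, NR5A1 at 68.3, NR5A2 at 62.5, TSPO at 54.5, STAR at 48.6 and NR0B1 at 1.18. Neighbours from CYP11A1 to FDX1 in large follicles, and from NR5A1 to STAR in small follicles, differed by less than the larger SD of the pair, as did NR5A2 and NR5A1 in large follicles and FDXR with FDX1 and CYP11A1 with HSD3B1 in small ones. The order also depends on gene length. The FPKM of CYP11A1 gave whole fragments over 2389 bases and not over its listed 3813. At the listed length CYP11A1 would average 145 FPKM in large and 65.1 FPKM in small follicles, below STAR in large follicles and above it in small ones. HSD3B1, FDXR, NR5A1 and NR5A2 likewise used 1877, 1876, 3017 and 3858 bases where 2060, 1914, 4077 and 6144 are listed. A ratio of FPKM between follicle sizes does not depend on the length.

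Some genes outside the path varied almost as the path genes did. Likeness was the root mean square difference of centred log2(FPKM + 1) over the 5 libraries, compared with 7547 other genes of mean FPKM 5 or more. Nearest to STAR were CACNA1G, a calcium channel subunit, at 0.19, CYP19A3, an aromatase copy, at 0.20, CHAC1, which degrades glutathione, at 0.21, and MRAP, the adrenal marker given above, and CITED1, a transcriptional coregulator, both at 0.28. CITED1 passed the test (log2 difference 1.48, limma adjusted p = 0.0398), a call lost without LF1 (limma adjusted p = 0.0988) and without SF1 (limma adjusted p = 0.219). CYP19A3 had 354, 1032 and 843 FPKM in large and 146 and 316 FPKM in small follicles, and near-identical aromatase copies leave its level uncertain. Nearest to CYP11A1 were OAF at 0.09, ADAMDEC1, a metalloproteinase, at 0.10, SLC25A4, the ADP/ATP carrier of the inner mitochondrial membrane, at 0.12, SCARB1, the receptor that takes up HDL cholesterol, at 0.14, and SYP, a vesicle protein, at 0.15. Nearest to HSD3B1 were DDX56, an RNA helicase, at 0.05, FN1, fibronectin, at 0.10, EPHX1, an epoxide hydrolase, at 0.13, and TP53INP2 and TMEM205, both at 0.15.

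Among the 9 genes, the smallest distance was that of FDX1 and NR5A1 at 0.27, followed by CYP11A1 and HSD3B1 at 0.31, HSD3B1 and FDXR at 0.317, and CYP11A1 and STAR at 0.319. CYP11A1 ranked the 14th nearest to STAR of all 13086 other genes tested, and HSD3B1 ranked the 87th nearest to CYP11A1. Ranked the other way, STAR was the 97th nearest to CYP11A1, and CYP11A1 the 184th nearest to HSD3B1. HSD3B1 was the 197th nearest to STAR, but STAR only the 5721st nearest to HSD3B1. FDX1 and NR5A1 both varied less over the libraries than these genes, and many genes lay nearer to each of them. NR5A1 ranked only the 5130th nearest to FDX1, and FDX1 the 2754th nearest to NR5A1. From CYP11A1, FDXR was at 0.46, TSPO at 0.60, FDX1 at 0.76, NR5A2 at 0.77, NR0B1 at 0.84 and NR5A1 at 0.87. FDX1, the electron carrier, was thus about as far from CYP11A1 as NR5A2. From STAR, HSD3B1 was at 0.60, FDXR at 0.77, TSPO at 0.82, NR0B1 and NR5A2 both at 1.06, FDX1 at 1.07 and NR5A1 at 1.19.

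Among the enzymes beyond the 9 genes, CYP17A1 and HSD11B1 rose. Of 13 tested steroid-forming enzymes, CYP11A1 and HSD3B1 included, 2 rose and 0 fell by limma, where 0.978% of all genes tested passed. By voom 2 passed. At an unadjusted p under 0.05 there were 7 of the 13, where 10.4% of all genes tested reached that level. CYP17A1, which turns progestagens into androgens, had a log2 difference of 3.07 (SE 0.44, limma adjusted p = 0.0121), and HSD11B1, which activates glucocorticoids, had 1.58 (SE 0.22, limma adjusted p = 0.0107). HSD11B1 lost its call without LF1 (limma adjusted p = 0.0665) and without SF1 (limma adjusted p = 0.0845), and both lost it with no filter on low values (limma adjusted p = 0.140 for CYP17A1 and 0.0756 for HSD11B1). HSD17B1, the estradiol-forming enzyme of granulosa cells, had 309, 395 and 243 FPKM in large and 586 and 989 FPKM in small follicles (limma adjusted p = 0.0956). Its limma adjusted p was 0.282 without LF1, 0.0223 without LF2 and 0.113 without LF3. The median of the 13 was 0.38.

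Genes of cholesterol supply gave no call. Of 13 tested genes for cholesterol uptake, storage and release, 0 passed limma, 2 had an unadjusted p under 0.05 and 0 passed voom, with a median of -0.08. SCARB1 had 98.7, 172 and 142 FPKM in large and 58.1 and 88.8 FPKM in small follicles, a log2 difference of 0.89 (SE 0.28, limma adjusted p = 0.255). Its groups did not overlap.

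Around STAR and TSPO, the other genes of mitochondrial cholesterol import gave no call. Of 11 tested, STAR and TSPO included, 0 passed limma, 3 had an unadjusted p under 0.05 and 0 passed voom, with a median of -0.03. The third of these was ACBD3, which binds TSPO, with 9.15, 9.69 and 14.1 FPKM in large and 14.7 and 22.8 FPKM in small follicles and a log2 difference of -0.72 (SE 0.29, limma adjusted p = 0.409). Of 5 tested genes of electron transfer to P450 enzymes, FDX1 and FDXR included, 0 passed limma, 0 had an unadjusted p under 0.05 and 0 passed voom. POR, which serves CYP17A1 and aromatase at the endoplasmic reticulum, had 140, 445 and 195 FPKM in large and 150 and 246 FPKM in small follicles. CYB5A, which assists CYP17A1, had 227, 326 and 306 FPKM in large and 167 and 240 FPKM in small follicles. Both overlapped between the groups.

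Transcription factors of the path gave no call. Of 23 tested, the 3 nuclear receptors included, 7 had higher and 16 lower values, and lower values were also the more common over all genes tested, where 39.9% had higher ones. Their median was -0.29, and by limma 0 passed, 3 had an unadjusted p under 0.05 and 0 passed voom. FOXL2, a granulosa factor, had 11.06, 25.9 and 19.5 FPKM in large and 26.0 and 42.3 FPKM in small follicles (log2 difference -0.86, limma adjusted p = 0.421). GATA4, which acts with NR5A1 on steroidogenic promoters, had 27.96, 36.5 and 39.9 FPKM in large and 48.4 and 47.6 FPKM in small follicles (log2 difference -0.47, limma adjusted p = 0.514). NR1H3, an oxysterol receptor, had 30.2, 38.3 and 29.2 FPKM in large and 23.3 and 22.1 FPKM in small follicles (log2 difference 0.49, limma adjusted p = 0.467). None of these overlapped between the groups, although FOXL2 in LF2 and SF1 differed by less than 0.1 FPKM.

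Of 14 tested genes of gonadotropin and cAMP signalling, 0 passed limma, 2 had an unadjusted p under 0.05 and 0 passed voom. The receptor of luteinizing hormone, LHCGR, which raises STAR through cAMP, had 33.5, 73.1 and 87.0 FPKM in LF1, LF2 and LF3 and 16.8 and 36.8 FPKM in SF1 and SF2. Its order differed from that of STAR in that LF3 was highest and SF2 lay above LF1. The LHCGR groups thus overlapped (log2 difference 1.23, SE 0.42, limma adjusted p = 0.311). FSHR, through which follicle-stimulating hormone acts on granulosa cells, had 5.47, 1.2004 and 8.06 FPKM in large and 15.5 and 16.6 FPKM in small follicles (log2 difference -1.75, SE 0.51, limma adjusted p = 0.201). It passed without LF3 (limma adjusted p = 0.00696), but not without LF1 (limma adjusted p = 0.391) or LF2 (limma adjusted p = 0.0651). Of 13 tested luteinization markers, 0 passed limma, 3 had an unadjusted p under 0.05 and 0 passed voom, with a median of -0.0023.

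Markers of the cells in the follicle differed in value between the groups. The summed FPKM of 15 theca markers, CYP17A1 and INSL3 included, was 4935, 8526 and 5968 in LF1, LF2 and LF3, and 4754 and 4152 in SF1 and SF2, and LF2 was highest as it was for STAR, CYP11A1 and HSD3B1. The groups did not overlap, but this rested on CYP17A1: the other 14 markers, summed after the data were seen, gave 4209, 6074 and 4925 in LF1, LF2 and LF3, and 4609.5 and 4005 in SF1 and SF2, with overlap. COL1A1, a collagen gene, is the largest term of the theca sum in every library. It had 1310, 2963 and 1747 FPKM in LF1, LF2 and LF3, and 1965 and 1437 FPKM in SF1 and SF2. The order and overlap of these sums thus depend on a few abundant genes, and a sum without COL1A1 was not taken. Of 15 tested theca markers 1, CYP17A1, rose and 0 fell by limma. Of 16 tested granulosa markers 7 had higher and 9 lower values. Their groups did not overlap for 5 higher and 6 lower markers, where 10.9% and 15.2% of all genes tested did so. By limma 0 granulosa markers rose and 1, the inhibin and activin subunit INHBB, fell (limma adjusted p = 0.0237). That call was lost without LF1 (limma adjusted p = 0.0775) and without SF2 (limma adjusted p = 0.0817). Of 11 tested myeloid markers 11 had higher values and 1, LYZ, rose, and their summed FPKM was 215 to 340 in large and 98.2 to 105 in small follicles. Of 11 tested endothelial markers 9 had higher values and 1, AQP1, rose (limma adjusted p = 0.0316), a call lost when LF1, SF1 or SF2 was left out (limma adjusted p = 0.0995, 0.198 and 0.143). Their sum was 463 to 533 in large and 394 to 410 in small follicles. Erythroid sums were 1006 to 1680 in large and 234 to 703 in small follicles, and smooth muscle sums 3778 to 4548 in large and 3176 to 3232 in small follicles. ACTA2 and TAGLN are the largest terms of the smooth muscle sum, and its 3 markers with the smallest p had lower values in large follicles. Of these, MYH11 had 100.4, 166 and 172 FPKM in large and 247 and 239 FPKM in small follicles, without overlap (log2 difference -0.77, limma adjusted p = 0.309), and RGS5 and MYLK, with log2 differences of -0.81 and -0.54, overlapped. At an unadjusted p under 0.05 there were 3 of 15 theca, 10 of 16 granulosa, 7 of 11 myeloid and 2 of 11 endothelial markers, where 10.4% of all genes tested reached that level. Of the same lists voom passed 1, 1, 1 and 0. By limma 0 of 4 erythroid, 0 of 7 smooth muscle, 0 of 8 oocyte and 0 of 3 adrenal markers passed, with 4, 2, 1 and 2 at an unadjusted p under 0.05 and 0 by voom in each. The neutrophil marker S100A8 was at 0 in both small follicle libraries and had 0.248 to 9.33 FPKM in large ones. Its levels rest on 9, 36 and 1 fragments in LF1, LF2 and LF3, so LF3 was not separated from 0. The part of these differences in cell content in the levels of STAR, CYP11A1 and HSD3B1 was not tested.

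**Figure D5:**
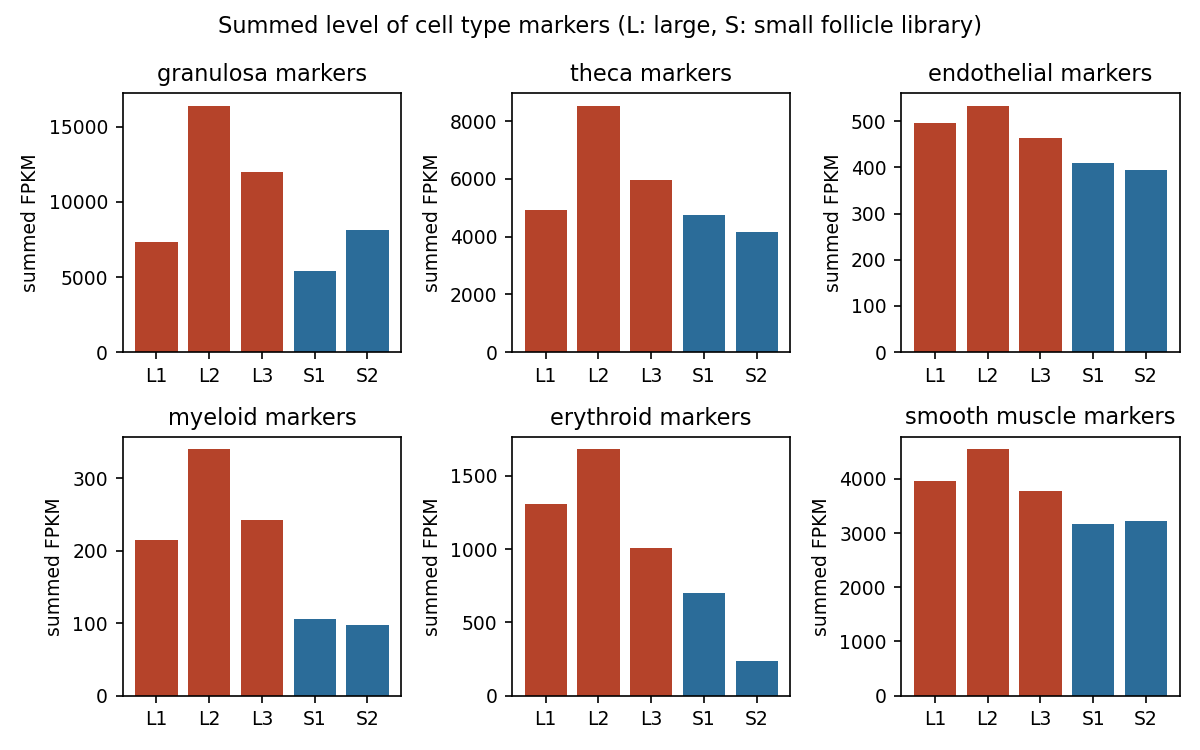
Summed FPKM of the markers of 6 cell types (vertical axes, starting at 0) in each library, large follicles left in red and small follicles right in blue. The granulosa sum has the within-group order of STAR and CYP11A1, and the theca, endothelial, myeloid, erythroid and smooth muscle sums are higher in all large follicle libraries, the theca sum only with CYP17A1 included.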

How the data were processed

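Total RNA of 5 follicle libraries was isolated with TRIzol and sequenced in pairs from a stranded mRNA kit, per the labels' protocols. The authors deposited FPKM per gene. The submitters' processing notes list the build Sscrofa11.1 and, in no stated role, featureCounts 1.5.0-p3, HISAT2 2.0.5, StringTie 1.3.3, FastQC 0.11.4 and Trimmomatic 0.38. Groups and replicate numbers came from the sample titles (LF1 is large follicle replicate 1, and so on). Fragments were worked back from the FPKM steps: 49.5% of genes above 0 gave whole fragments at the listed length, the others at the smallest shorter length that did (tolerance 0.001 of a fragment, in proportion above 1000 fragments). Libraries of 1 group differed beyond sampling noise (chi-square per degree of freedom at least 31.1).

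Genes reaching an FPKM of 1 in 2 or more libraries (13087) were fitted with limma 3.58.1 in R 4.3.3 on log2(FPKM + 1), a mean-variance trend and group as the sole term. Adjustment was Benjamini-Hochberg across them, with a threshold of 0.05. In simulated libraries with known changes, every set gave a share of false calls above the threshold. This scale understates changes of low genes. All 9 genes passed the filter. The genes and lists were chosen with earlier results of these data known. Named besides the 9 were up to 3 genes per list with the smallest p, and the 5 most like STAR, CYP11A1 and HSD3B1. A few genes that this rule or the marker lists would name are not reported here. INHA, AMH, INSL3, MC2R, MRAP and CYP21A2 were given as defining markers. Ratios to NR5A1 of STAR and CYP11A1, and of FDXR to CYP11A1, were added after seeing the data. Promoter and protein sequences were not used here.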

Additional observations from a re-analysis of the deposited data

How the results depend on the processing

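The 9 genes were refitted under 13 alternatives, and 110 of 116 values kept their direction and their side of the threshold. STAR ranged from 1.36 to 2.13, CYP11A1 from 0.80 to 1.45 and HSD3B1 from 0.30 to 0.85. Leaving out 1 library at a time gave STAR 1.36 to 2.13 and between 0 and 1 of the 9 genes called, the 1 being STAR. The same left-out fits gave FDXR -0.14 (without SF1) to 0.59, FDX1 -0.29 to 0.0098 (without SF2), NR5A2 -0.89 to 0.048 (without SF2) and POR -0.22 (without LF2; -0.10 without SF1) to 0.61. The number of genes called among all tested was 128, and 29 to 268 with 1 library left out (29 without LF1, 268 without LF2, 222 without LF3, 78 without SF1 and 60 without SF2), 32 with no filter on low values, 41 above a mean FPKM of 5, 210 under median-of-ratios scaling, 201 under quantile normalization and 70 by voom. The higher share of calls was 70 of 128, 31 of 41 above a mean FPKM of 5 and 52 of 107 with a pseudocount of 5. Limma adjusted p with no filter on low values was 0.169 for CITED1, 0.166 for INHBB and 0.0937 for AQP1; by voom it was 0.0793 for CITED1 and 0.0586 for AQP1; above a mean FPKM of 5 it was 0.0649 for CITED1 and 0.0522 for INHBB; and AQP1 had 0.0556 under median-of-ratios scaling. The cause of these differences was not tested. With replicate number as a block, 157 of all genes and 1 of the 9 were called, STAR at 1.71 (limma adjusted p = 0.000198). Among other genes named, AQP1 then had a limma adjusted p of 0.109, CYP19A3 0.00387, FSHR 0.00556 and CHAC1 0.0157, on the other side of the threshold; MRAP had 0.0407 under median-of-ratios scaling and 0.0360 under quantile normalization. The labels do not say that the numbers pair libraries, and deviations of same-numbered libraries correlated at -0.27 over genes. Only LF3 has the number 3, so the block takes up LF3 and its estimates equal those without LF3. STAR was 1.71 and CYP11A1 1.13 in both fits. The block fit is therefore not separate from the fit without LF3, and few libraries are left to measure its spread. The promoter motif search could not be run without sequences. For a gene of 2000 bases, 3 fragments are worth 0.130 to 0.158 FPKM, and depth limits NR0B1 most.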
